A study of Gallus gallus with 6 samples.

Results

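The splicing factors, heterogeneous nuclear ribonucleoproteins (hnRNPs) and CLK kinases described here were the genes of the deposited chick table whose symbols begin with SRSF, TRA2, HNRNP, SF3A, SF3B, U2AF, SNRNP, SNRPA to SNRPG, or RBM followed by a digit, together with CLK1 to CLK4. The symbols selected 80 of 17262 genes. A total of 78 of these had 10 or more counted reads in at least 3 of the 6 libraries and are described. All 78 also passed the filter on low counts before the test. RBM46, with 1, 0 and 4 counts at 1 h and 4, 6 and 4 at time 0, and RBM47, with at most 2 counts in any library, fell below that level. RBM11 was just above it, with 17, 22 and 21 counts at time 0 and 15, 22 and 6 at 1 h.

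Wounded lens explants of chick embryos at embryonic day 14 were sequenced as poly(A) RNA in 3 libraries collected directly at wounding (time 0) and 3 libraries collected 1 h later. Each library pooled 6 explants, an explant being the lens capsule with its equatorial epithelium and resident immune cells. The central epithelium and the fiber cell mass had been taken out of the lens ex vivo. Both groups were wounded, and no unwounded lens was part of the comparison. Only the 1 h explants were also cut at the equatorial epithelium and laid flat, and they spent that hour in medium with 10% fetal bovine serum. Time after wounding, the further cuts, the flattening and culture therefore cannot be told apart. The labels give replicates as biological, and p-values measure the spread between these pooled samples.

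Before a transcript leaves the nucleus, its introns are removed by the spliceosome, which is assembled from small nuclear ribonucleoproteins (snRNPs). In most of these a short RNA is held in a ring of Sm proteins with particle-specific partners. Which splice sites are used is set in large part by SR proteins, which mostly favour the inclusion of the exons they bind, and by hnRNPs, which often oppose them. CLK kinases phosphorylate the arginine- and serine-rich tails of SR proteins and so release them from nuclear speckles to sites of transcription. Many genes of these families regulate their own transcripts through exons that lead to decay, and counts per gene, as used here, do not separate such isoforms.

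Levels are given as CPM, counts brought to a common library total, after scaling by the trimmed mean of M values (TMM). Changes are log2 fold changes of 1 h over time 0 with their standard error (SE), fitted with edgeR, whose quasi-likelihood p-values were adjusted by the Benjamini-Hochberg method over the 12391 genes tested. A gene with an adjusted p under 0.05 is said to have risen or fallen. Libraries held 13733581 to 17673955 counts, of which the described genes took 1.01% to 1.14%. Within a time point, every pair of libraries differed by more than sampling noise (chi-square per degree of freedom of 8.13 to 15.0). Lens fiber markers moved in the same comparison: 6 of the 8 tested fell, and their sum ranged over 82428 to 94825 CPM in the time 0 libraries and over 74511 to 81408 CPM in the 1 h libraries. The lens epithelium markers found (4 of 7) summed to 3217 to 3244 CPM at time 0 and 3160 to 3199 CPM at 1 h, with SOX2 and PAX6 higher and GJA1 lower. Immune cell markers (8 of 10 found) summed to 2.23 to 5.17 CPM at time 0 and 3.15 to 5.03 CPM at 1 h, and neither of the 2 that could be tested passed. The markers found for blood cells summed to 28.0 to 29.6 CPM at time 0 and 29.3 to 45.6 CPM at 1 h, and those for pigmented ciliary epithelium to 0.885 to 1.51 and 0.261 to 0.993 CPM. The part of these shifts in the results on splicing genes was not tested, and fewer cells of a type cannot be told apart from less RNA per cell.

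Within 1 h of wounding the splicing genes did not move as a block. CLK1, CLK4 and CLK2 rose 3.69-fold, 2.96-fold and 2.54-fold, and no other described gene that passed the test changed by 2-fold or more. Of the 78 genes, 16 rose and 11 fell, or 20.5% and 14.1%. Across all genes tested, 31.8% were called, 19.8% higher and 12.0% lower, so the shares of the whole family were near the background. Their median log2 fold change was -0.0031, next to -0.0058 over all genes tested, with 39 values above 0 and 39 below. All 1 h libraries lay above all time 0 libraries for 20 of the genes, and below them for 16. Over all genes tested these patterns were found in 25.4% and 21.4%.

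The balance between higher and lower calls depended on how the libraries were scaled. Upper-quartile scaling moved the median of all genes to -0.14, and under it 9 of the splicing genes rose and 26 fell, while scaling by library totals gave 14 and 15. The share of higher calls among all called genes was 62.2% with TMM, 35.9% with upper-quartile scaling and 52.2% with library totals. Single libraries mattered too. Without 1 h replicate 3, 10 of the genes rose. The number that fell was 5 without time 0 replicate 1 or replicate 3, 6 without 1 h replicate 2, and 7 without time 0 replicate 2 or 1 h replicate 3. Calls over all 12391 genes tested became fewer in these fits too. Leaving out 1 library gave 1953 to 2280 of them higher and 1030 to 1431 lower, against 2450 and 1488 with every library. Class counts without a library, here and below, stand beside these numbers. Among the 78 genes, 9 increases and 3 decreases were kept in every alternative fit, including each one that left out a library. The increases were those of CLK1, CLK4, CLK2, RBM33, RBM15B, HNRNPDL, RBM39, SRSF11 and HNRNPH2. The decreases were those of RBM12B, SNRPD2 and SNRNP40.

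**Figure D1:**
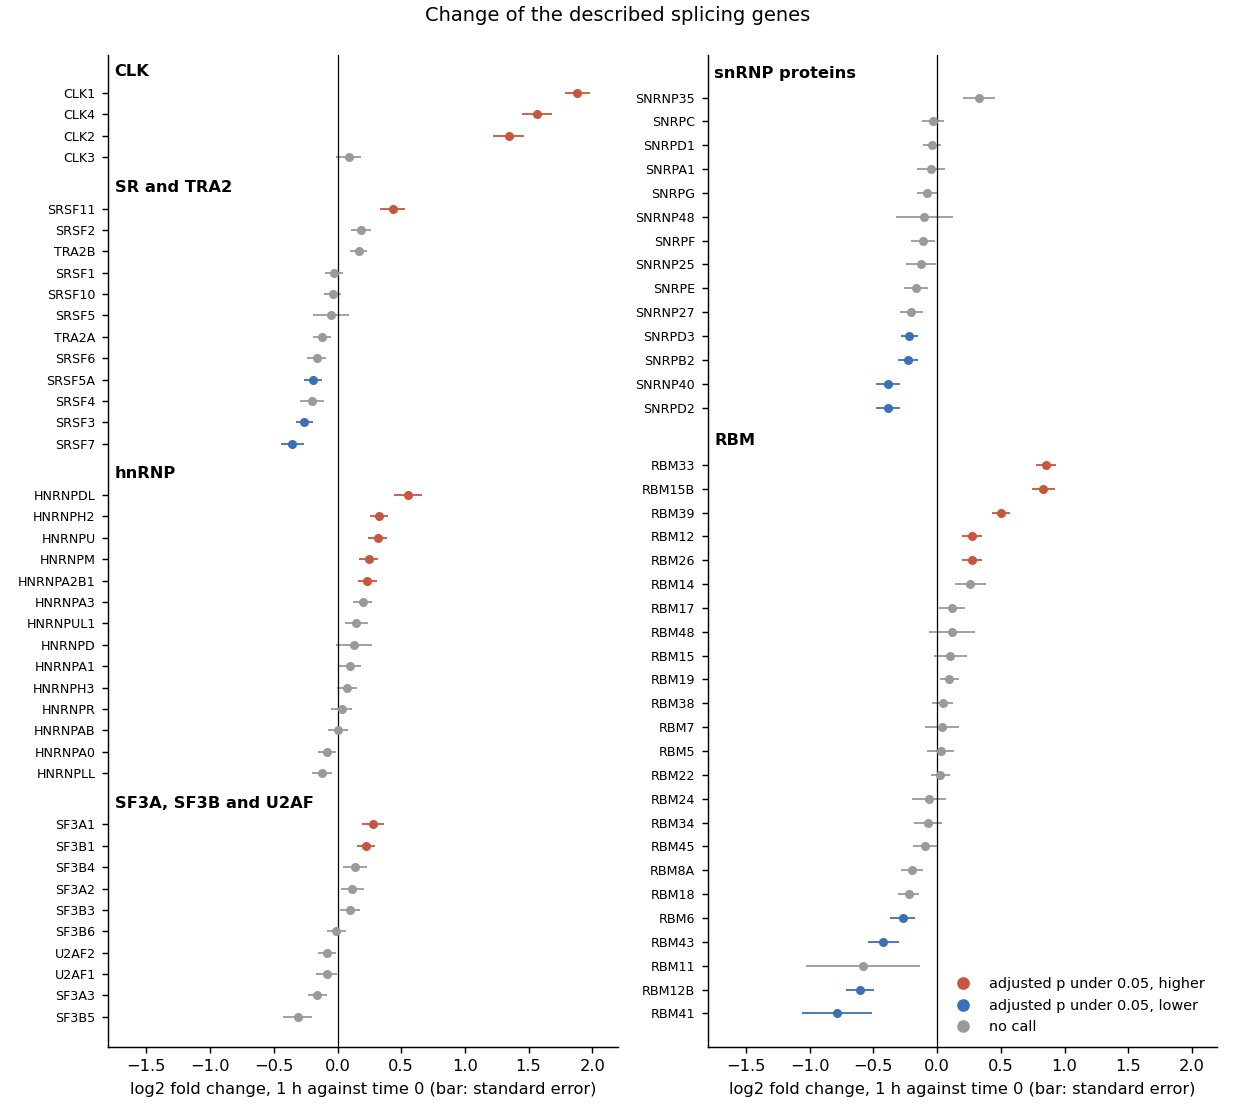
Log2 fold change of each of the 78 described genes at 1 h against time 0 (points, with bars for the standard error), grouped by family and sorted within it. Red points passed the test as higher, blue as lower, and grey did not pass. CLK1, CLK4 and CLK2 stand at 1.88, 1.57 and 1.34, while every other called gene lies between -0.79 and 0.86.

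The CLK kinases were taken first, as the enzymes that act on the SR proteins. CLK1 (chromosome 7, 11298069 to 11305798, minus strand, as the table lists it) measured 24.6, 31.8 and 31.3 CPM in time 0 replicates 1, 2 and 3, and 108, 107 and 109 CPM at 1 h. The lowest 1 h library was thus above 3 times the highest at time 0, with almost no spread at 1 h. The mean went from 29.2 ± 3.98 to 108 ± 1.31 CPM (SD, n = 3), a log2 fold change of 1.88 (SE 0.10), which edgeR gave an adjusted p of 3.01e-08. CLK1 ranked 95 among all genes tested by adjusted p.

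CLK4, the closest relative of CLK1, lies on chromosome 13 (14827875 to 14836883, plus strand). It measured 18.7, 24.2 and 23.5 CPM at time 0 and 58.0, 65.4 and 74.0 CPM at 1 h. These groups were well apart, although the 1 h libraries spread more widely than those of CLK1. The log2 fold change was 1.57 (SE 0.12, edgeR adjusted p = 1.35e-06). CLK2 (chromosome 25, 3531904 to 3540945, minus strand) measured 12.9, 15.8 and 16.4 CPM at time 0 and 41.3, 33.4 and 40.1 CPM at 1 h. Again the groups did not overlap, with a log2 fold change of 1.34 (SE 0.12, edgeR adjusted p = 5.02e-06).

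CLK3 (chromosome 10, 2929279 to 2937676, minus strand) was the exception in the family. Its libraries held 24.8, 25.5 and 27.6 CPM at time 0 and 27.4, 25.1 and 30.2 CPM at 1 h, and the groups overlapped. The log2 fold change of 0.09 (SE 0.10) did not pass (edgeR adjusted p = 0.542), and its 95% interval ran from -0.13 to 0.30. The sign of that value turned under upper-quartile scaling (-0.05) and without 1 h replicate 3 (-0.0049). In edgeR 3 of the 4 CLK genes rose and 0 fell, where 19.8% and 12.0% of all genes tested did. These CLK counts were the same at an unadjusted p under 0.05 and in DESeq2. Of 12389 genes, DESeq2 called 2211 higher and 1377 lower. Shares of all genes at an unadjusted p under 0.05 are not given, so class counts at that level have no background here. None of the 4 overlaps another gene of the table. Across the alternative fits, CLK1 ranged over log2 fold changes of 1.75 to 1.94, CLK4 of 1.43 to 1.63, and CLK2 of 1.21 to 1.42.

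The order of the family changed with these shifts. Per kilobase of gene length, the mean level at time 0 was highest for CLK3 (15.0 CPM per kb), followed by CLK4 (12.1), CLK1 (8.82) and CLK2 (6.68). At 1 h the order was CLK4 (35.9), CLK1 (32.6), CLK2 (17.0) and CLK3 (15.9). Summed over the 4 genes, the libraries held 81.1, 97.3 and 98.8 CPM at time 0 and 234.5, 230.5 and 254 CPM at 1 h, or 259% of the time 0 mean. Ratios between members within a library were compared for the 6 pairs by an exact permutation test, two-sided, in which 3 against 3 libraries cannot give a p under 0.1. The log2 ratio of CLK1 to CLK3 rose by 1.81, that of CLK2 to CLK3 by 1.26, and that of CLK3 to CLK4 fell by 1.49 on the log2 scale. Each of these separated the groups completely (exact p = 0.1, 0.12 adjusted over the 6 pairs), as did CLK1 to CLK2 (0.55) and CLK1 to CLK4 (0.32). The ratio of CLK2 to CLK4 moved by -0.22 and overlapped (exact p = 0.4, adjusted 0.4).

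**Figure D2:**
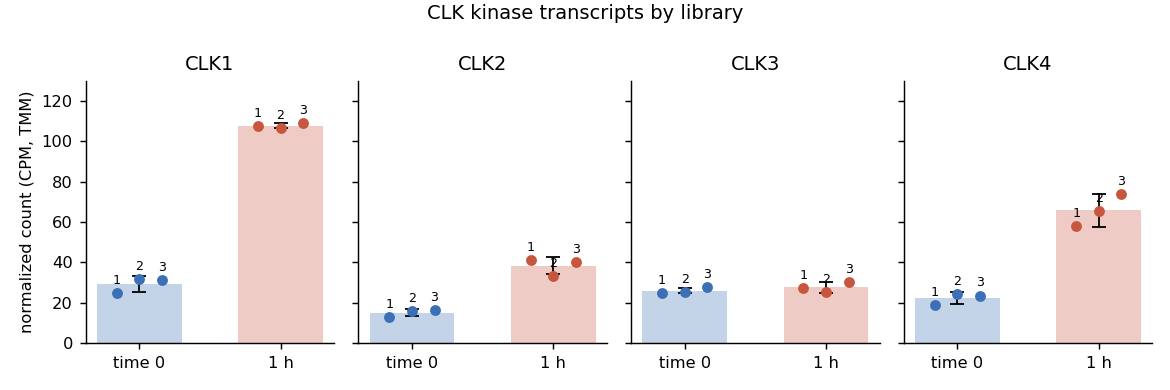
Level of each CLK kinase (CPM after TMM scaling) in the time 0 and 1 h libraries. Points are single libraries with their replicate number, bars are the mean of 3 libraries and whiskers the SD. The 1 h points of CLK1, CLK2 and CLK4 all lie above the time 0 points, and those of CLK3 overlap them at 24.8 to 30.2 CPM.

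The SR proteins, which the CLK kinases phosphorylate, did not follow them. Of the 12 SRSF and TRA2 genes, 1 rose and 3 fell in edgeR, or 8.33% and 25% against 19.8% and 12.0% of all genes tested. An unadjusted p under 0.05 gave 3 and 4, and DESeq2 gave 1 and 2. With a replicate block and a correction for gene length together, 2 rose and 0 fell. The median log2 fold change was -0.09, with 9 of 12 values below 0. Summed over the class, the level went from 2132 ± 88.7 CPM to 2057 ± 92.1 CPM (SD, n = 3). SRSF11, an SR-related protein, was the gene that rose. It measured 92.8, 101 and 116 CPM at time 0 and 154, 137 and 128 CPM at 1 h, all 1 h libraries being above all time 0 libraries. The log2 fold change was 0.43 (SE 0.10, edgeR adjusted p = 0.00503).

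The genes that fell were SRSF7, SRSF3 and SRSF5A. SRSF3 and SRSF7 are small SR proteins that also couple splicing to mRNA export. SRSF7 measured 94.5, 119.8 and 109.8 CPM at time 0 and 89.4, 81.6 and 82.7 CPM at 1 h, so the groups were separate but close (log2 fold change -0.35, SE 0.09, edgeR adjusted p = 0.0106). SRSF3 measured 179, 188 and 194 CPM at time 0 and 159.7, 155 and 154 CPM at 1 h, with no overlap (log2 fold change -0.26, SE 0.07, edgeR adjusted p = 0.0110). With a correction for gene length SRSF3 no longer passed, and without time 0 replicate 3 its adjusted p was 0.0503, while SRSF7 lost its call only when that correction was combined with a replicate block.

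SRSF5A sits on chromosome 5 about as abundant as the gene named SRSF5 on the same chromosome. Their sequences were not compared. If they are alike, reads may be divided between them, so both are uncertain. SRSF5A measured 118, 113 and 114 CPM at time 0 and 106, 96.5 and 99.4 CPM at 1 h, at an edgeR adjusted p of 0.0499. That call was lost in 10 of the alternative fits, DESeq2 among them. SRSF5 itself measured 128, 129 and 141 CPM at time 0 and 155, 129 and 99.5 CPM at 1 h, spreading widely at 1 h. Without time 0 replicate 3, SRSF7 alone remained among the SR genes that fell. SRSF6 had the highest level per length of the class (136 CPM per kb over all libraries). Its libraries held 468, 488 and 522 CPM at time 0 and 459, 442 and 417 CPM at 1 h, and although the groups did not overlap the change of -0.16 did not pass (edgeR adjusted p = 0.107). SRSF6 passed as lower with the length correction alone (-0.21) and with upper-quartile scaling (-0.30). SRSF2 and TRA2B, which bind exonic enhancers, were likewise separate but upward, at 0.18 and 0.16, without passing, though TRA2B passed with the length correction (0.26).

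The hnRNP class leaned the other way. Of 14 HNRNP genes, 5 rose and 0 fell in edgeR, or 35.7% and 0% against 19.8% and 12.0% of all genes tested. An unadjusted p under 0.05 gave 6 and 0, and DESeq2 gave 5 and 0. The median log2 fold change was 0.14, with 12 of 14 values above 0. Under upper-quartile scaling that median was 0.0031, with 2 genes rising and 2 falling, so the direction of the class relative to 0 rests on the scaling. Relative to the median of all genes it was 0.14 under both. Without time 0 replicate 2, or without any one of the 1 h libraries, 3 hnRNP genes rose. The summed level went from 4901 ± 355 CPM to 5516 ± 119 CPM.

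HNRNPDL, which binds AU-rich RNA and is a relative of HNRNPD, had the largest change of the class. It measured 119, 141 and 150.1 CPM at time 0 and 229.8, 195 and 176 CPM at 1 h, with no overlap (log2 fold change 0.55, SE 0.11, edgeR adjusted p = 0.00294). Its gene shares 275 bases with HNRNPD on the same strand and 660 bases with ENOPH1 on the other. Overlaps given here are of whole gene spans, from listed start to end with introns, so not all of these bases need be counted. Whether reads were counted by strand is not stated, so reads from these stretches may be misassigned. HNRNPD itself changed by 0.13 and ENOPH1 by -0.21, and neither passed.

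HNRNPH2, which recognises runs of G, measured 557, 517 and 575 CPM at time 0 and 705, 675 and 690.3 CPM at 1 h. Both groups were tight and apart (log2 fold change 0.33, SE 0.07, edgeR adjusted p = 0.00402), and the overlapping gene DGUOK was counted far less (234 reads on average against 9586). HNRNPU, a nuclear scaffold protein that binds RNA and DNA, measured 453, 401 and 439 CPM at time 0 and 568, 520.2 and 521 CPM at 1 h. It rose by 0.32 (SE 0.08, edgeR adjusted p = 0.00724), and this call was lost only with upper-quartile scaling (adjusted p 0.0676).

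HNRNPM, a GU-binding splicing regulator, measured 217, 193 and 218 CPM at time 0 and 254, 246 and 244 CPM at 1 h (log2 fold change 0.24, SE 0.07, edgeR adjusted p = 0.0229). The fifth was HNRNPA2B1, named because the count is small, at 535, 461 and 529 CPM and then 624, 588 and 583 CPM (log2 fold change 0.23, SE 0.08, edgeR adjusted p = 0.0370). Time 0 replicate 2 was the lowest library for each of HNRNPH2, HNRNPU, HNRNPM and HNRNPA2B1, and without it the last 2 no longer passed. In all, HNRNPA2B1 lost its call in 10 alternative fits and HNRNPM in 5. HNRNPA1, the classic antagonist of SR proteins, was the most abundant described gene per length (399 CPM per kb). It measured 806, 649.8 and 756 CPM at time 0 and 736, 807 and 821 CPM at 1 h, and the overlapping groups gave 0.10 (SE 0.09, edgeR adjusted p = 0.437), a value that turned to -0.04 with upper-quartile scaling.

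**Figure D3:**
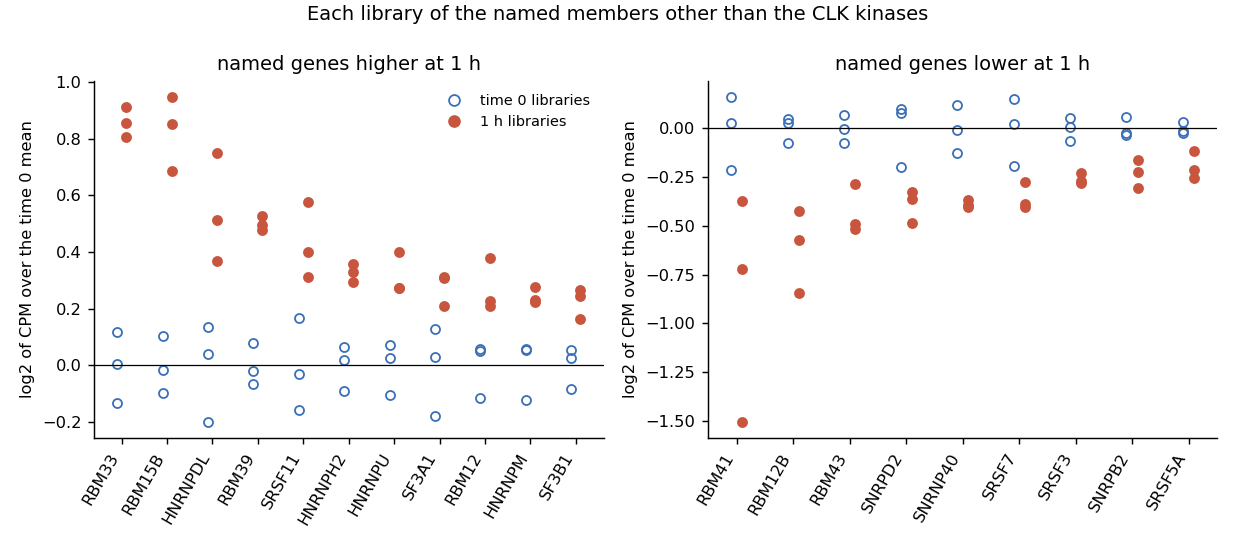
Level in every library of each gene that the naming rule picked for a change that passed, other than the CLK kinases, as log2 of its CPM over its own time 0 mean. Open blue circles are time 0 libraries and filled red circles 1 h libraries, with genes that rose on the left and genes that fell on the right, on separate vertical scales. The groups do not overlap for any gene shown, which holds for all 16 described genes that rose and all 11 that fell. As the genes were picked for passing, this is no separate support. The 1 h libraries of RBM41, the least abundant gene shown, spread most widely.

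The factors that recognise the branch point and the 3′ splice site gave log2 fold changes between -0.31 and 0.28. Of the 10 SF3A, SF3B and U2AF genes, 2 rose and 0 fell in edgeR and in DESeq2, and an unadjusted p under 0.05 gave 2 and 1. The share that rose (20%) was close to that of all genes tested (19.8%). The median log2 fold change was 0.05 and turned to -0.09 with upper-quartile scaling, where 0 rose and 4 fell. SF3A1, a subunit of the SF3a complex of the U2 particle, measured 89.4, 72.4 and 83.6 CPM at time 0 and 101, 94.6 and 102 CPM at 1 h (log2 fold change 0.28, SE 0.09, edgeR adjusted p = 0.0261). SF3B1, the large SF3b subunit that holds the branch point, measured 191, 206 and 209.5 CPM and then 243, 239 and 226 CPM (log2 fold change 0.23, SE 0.07, edgeR adjusted p = 0.0278). Neither call was firm. SF3B1 lost it in 10 alternative fits and SF3A1 in 5, and without 1 h replicate 1 or 1 h replicate 3 neither passed. Leaving out any one of the other libraries left 1 of the pair.

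SF3B6, the small subunit that lies next to the branch-point adenosine, had the highest level per length of this class (105 CPM per kb). Its libraries held 78.9, 70.0 and 79.0 CPM at time 0 and 77.9, 73.0 and 75.3 CPM at 1 h, which is to say that they interleaved. Its log2 fold change of -0.01 (edgeR adjusted p = 0.933, 95% interval -0.18 to 0.15) took either sign across the alternatives. SF3B5, another small SF3b subunit, missed the threshold at -0.31 (SE 0.11, edgeR adjusted p = 0.0546) and passed in 6 of the alternatives, all downward. U2AF1 and U2AF2, which bind the 3′ splice site and the pyrimidine tract before it, gave -0.09 and -0.08 without passing.

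Among the proteins of the snRNP particles, the calls were all decreases, and small ones. Of 14 SNRNP and SNRP genes, 0 rose and 4 fell in edgeR, or 0% and 28.6% against 19.8% and 12.0% of all genes tested. An unadjusted p under 0.05 gave 1 and 5, and DESeq2 gave 0 and 3. The median log2 fold change was -0.12, with 13 of 14 values below 0, and the summed level went from 638 ± 26.6 CPM to 575 ± 12.1 CPM, or 90.1% of time 0. These are short genes, with a median length of 1025 bases against 2436 over all genes tested. When the trend of each library with gene length was removed, the class median became 0.02, with 8 of 14 values above 0, so the direction of the class did not hold under that correction. The count that fell was then 3, and it was 2 without time 0 replicate 1, time 0 replicate 3 or 1 h replicate 2.

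SNRPD2, a protein of the Sm ring, measured 61.0, 49.7 and 60.2 CPM at time 0 and 44.3, 45.4 and 40.7 CPM at 1 h (log2 fold change -0.39, SE 0.09, edgeR adjusted p = 0.00805). SNRNP40, a component of the U5 particle, measured 34.2, 28.8 and 31.3 CPM and then 24.0, 24.4 and 23.8 CPM (log2 fold change -0.39, SE 0.09, edgeR adjusted p = 0.00841). Both were separate between the groups and kept their call in every alternative, the length correction included. At 2421 and 1824 bases they are longer than the class median. SNRNP40 overlaps ZCCHC17 on the other strand by 510 bases, and that gene, counted at a like level, changed by 0.26 without passing.

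SNRPB2, a protein of the U2 particle, measured 58.6, 55.4 and 55.0 CPM at time 0 and 50.3, 48.2 and 45.6 CPM at 1 h (log2 fold change -0.23, SE 0.08, edgeR adjusted p = 0.0366). SNRPD3, the fourth of the genes that fell and another Sm protein, measured 124, 118 and 120.4 CPM and then 103, 100.1 and 109 CPM (log2 fold change -0.22, SE 0.07, edgeR adjusted p = 0.0290). Each of these calls was lost in 6 alternatives. SNRPF, also of the Sm ring, had the highest level per length of the class (93.5 CPM per kb). It measured 43.0, 36.4 and 40.7 CPM at time 0 and 39.7, 37.0 and 34.4 CPM at 1 h, and its overlapping groups gave -0.11 (edgeR adjusted p = 0.380), which turned to 0.02 with the length correction.

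The value above 0 in this class was that of SNRNP35, a protein of the U11 particle of the minor spliceosome. It measured 20.8, 15.9 and 17.6 CPM at time 0 and 22.5, 20.4 and 25.2 CPM at 1 h, with a log2 fold change of 0.33 (SE 0.13, edgeR adjusted p = 0.0661), and it passed without time 0 replicate 1 and with the length correction. The span of SNRNP35, whose listed gene length is 1851 bases, shares 14912 bases with RILPL1 on the other strand. RILPL1 had more reads and rose by 0.29. Spans of other snRNP genes overlap neighbours that moved more than they did. SNRNP27 (-0.20, not passing) overlaps HK2, which rose by 2.28, and SNRPA1 (-0.05, not passing) overlaps a gene without a symbol that rose by 3.20. SNRPE (-0.17, not passing) overlaps MTCH1, which fell by 0.91 on the log2 scale. How far such neighbours enter the counts of these genes was not tested. In all, 26 of the 78 described genes overlap another gene of the table.

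The RBM genes are named for an RNA-binding motif rather than for a shared role, and they moved in both directions. Of 24, 5 rose (20.8%) and 4 fell (16.7%), near the 19.8% and 12.0% of all genes, with a median log2 fold change of 0.03, and DESeq2 gave 5 and 2. Without time 0 replicate 2 or 1 h replicate 3, 3 rose. The number that fell was 1 without time 0 replicate 1, and 2 without time 0 replicate 2 or 3 or 1 h replicate 2 or 3. RBM33, an RNA-binding protein, measured 55.6, 66.1 and 61.2 CPM at time 0 and 107, 115 and 110.2 CPM at 1 h. Its log2 fold change of 0.86 (SE 0.08, edgeR adjusted p = 6.54e-06) was the largest outside the CLK family.

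RBM15B, which in mammals recruits the m6A methyltransferase to RNA, came next. It measured 41.1, 35.7 and 37.7 CPM at time 0 and 61.4, 68.8 and 73.6 CPM at 1 h, with a wide gap between the groups (log2 fold change 0.83, SE 0.09, edgeR adjusted p = 2.41e-05). Its relative RBM15 gave 0.10 and did not pass. RBM39, a splicing factor related to U2AF2, measured 124, 137 and 127 CPM and then 187, 180.2 and 182 CPM (log2 fold change 0.50, SE 0.07, edgeR adjusted p = 0.000166). RBM33, RBM15B and RBM39 each passed in every alternative, with the highest adjusted p being 0.000113, 0.000335 and 0.00189.

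RBM12 measured 109, 96.9 and 109 CPM at time 0 and 136, 121 and 123 CPM at 1 h (log2 fold change 0.27, SE 0.08, edgeR adjusted p = 0.0191). Its whole span of 11643 bases lies within that of CPNE1 on the same strand, which gave 0.32 without passing. RBM26, a factor linked to nuclear RNA decay and named because the count is small, measured 105, 102 and 108 CPM and then 120.0, 123 and 138 CPM (log2 fold change 0.27, SE 0.08, edgeR adjusted p = 0.0160). These were smaller shifts than those of the first 3, and without time 0 replicate 2 or 1 h replicate 3 neither passed. In all, RBM12 lost its call in 6 alternatives, the length correction among them, and RBM26 in 4. Upper-quartile scaling was among those for both.

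Among the RBM genes that fell, RBM12B held in every alternative. It measured 41.4, 38.5 and 42.0 CPM at time 0 and 27.4, 30.3 and 22.6 CPM at 1 h (log2 fold change -0.60, SE 0.11, edgeR adjusted p = 0.00115). RBM41 had the largest fitted decrease of all described genes at -0.79, with the widest error among those that passed (SE 0.28, edgeR adjusted p = 0.0462). Its libraries held 4.72, 5.17 and 4.0 CPM at time 0 and 1.63, 3.58 and 2.80 CPM at 1 h. The call was lost in 9 alternatives, and its gene shares 2477 bases on the same strand with NUP62, counted at 426 reads on average against 55.7 for RBM41.

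RBM43 measured 16.6, 15.8 and 15.0 CPM at time 0 and 11.0, 11.2 and 13.0 CPM at 1 h (log2 fold change -0.42, SE 0.12, edgeR adjusted p = 0.0192), and it did not pass without time 0 replicate 1 or without 1 h replicate 2. RBM6, a splicing regulator related to RBM5 and named because the count is small, measured 24.6, 22.4 and 24.1 CPM and then 19.3, 20.1 and 19.5 CPM (edgeR adjusted p = 0.0495). RBM6 lost its call without any one of the 6 libraries, and it overlaps RAD54L2, which rose by 0.98, on the other strand. RBM5 gave 0.03 and did not pass. RBM8A, a core protein of the exon junction complex and the RBM gene with the highest level per length (137 CPM per kb), measured 77.1, 65.7 and 72.7 CPM at time 0 and 64.6, 57.1 and 66.3 CPM at 1 h, a change of -0.20 that did not pass (edgeR adjusted p = 0.106).

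The genes around this set were described in 5 further lists, read against the same background of 19.8% higher and 12.0% lower. As the lists were chosen with earlier results of these data known, their shares are a description and no test. In the list of other splicing regulators, 26 of 51 genes tested rose and 1 fell, and the median log2 fold change was 0.33. Upper-quartile scaling gave 18 higher and 4 lower with a median of 0.20. The length correction gave 20 and 1 with a median of 0.25. The pair with the largest increases were CCNL1 and CCNL2, the cyclins L, which pair with CDK11 and sit in nuclear speckles. CCNL1 measured 18.7, 22.9 and 24.5 CPM at time 0 and 133, 153 and 163 CPM at 1 h (log2 fold change 2.76, SE 0.11, edgeR adjusted p = 6.30e-09). CCNL2 measured 42.6, 53.7 and 54.5 CPM and then 217, 195 and 192 CPM (log2 fold change 2.00, SE 0.10, edgeR adjusted p = 2.63e-08). The change of CCNL1 was above that of CLK1 and that of CCNL2 lay near it, differences that were not tested. YBX1, an abundant RNA- and DNA-binding protein with a cold shock domain, was the gene of this list that fell, from 4679, 4788 and 4116 CPM to 3362, 3356 and 3472 CPM (log2 fold change -0.41, SE 0.08, edgeR adjusted p = 0.00170).

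The second list held further kinases that act on SR proteins or are related to the CLK family (SRPK, DYRK and HIPK). Of 9 tested, 4 rose (DYRK1A 0.89, HIPK1 0.47, HIPK3 0.38 and HIPK2 0.27) and 1 fell (DYRK2, -0.28), the last 2 that rose being named because the count is small. DYRK1A, a speckle-associated kinase, measured 25.5, 25.9 and 26.9 CPM at time 0 and 47.4, 47.3 and 50.1 CPM at 1 h (edgeR adjusted p = 4.91e-06). The SRPK kinases, which phosphorylate SR proteins mainly in the cytoplasm, did not pass. SRPK1 measured 80.3, 76.5 and 78.5 CPM at time 0 and 81.7, 80.0 and 83.0 CPM at 1 h (log2 fold change 0.06, SE 0.07, edgeR adjusted p = 0.552), and SRPK2 gave 0.18 (SE 0.11, edgeR adjusted p = 0.228). With the length correction 2 of the 9 kinases rose, HIPK2 and HIPK3 no longer passing.

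The core spliceosome list, which leaves out the genes described above, had 9 of 58 genes higher and 13 lower, with a median of -0.10. CWC22 (0.82), which brings the exon junction complex to the spliceosome, and the RNA helicase DDX5 (0.81) rose most. The largest decreases were those of PHF5A (-0.41), the SF3b subunit next to SF3B1, and PDCD7 (-0.39), a protein of the minor spliceosome, whose call was lost in 7 alternatives. Without time 0 replicate 1 the counts in this list were 5 and 7, and the count that fell was 6 without 1 h replicate 2 and 7 without time 0 replicate 3.

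Of 20 genes for exon junction, export and decay factors, 7 rose and 3 fell, with a median of 0.07. UPF1 (0.62) and SMG1 (0.57), the helicase of nonsense-mediated decay and the kinase that phosphorylates it, rose most, but SMG1 did not pass with the length correction (0.14, edgeR adjusted p = 0.147). The genes that fell were SAP18 (-0.35), NCBP1 (-0.29) and NCBP2 (-0.26), the last of these named because the count is small and, with NCBP1, a subunit of the nuclear cap-binding complex. The list of LSM proteins and of the SMN complex, which loads Sm rings onto RNA, had 3 of 20 genes higher and 5 lower, with a median of -0.21. LSM14B (0.55) and LSM14A (0.40), proteins of cytoplasmic granules, rose most, and LSM10 (-0.61), of the U7 particle, and WDR77 (-0.39), a cofactor of the enzyme that methylates Sm proteins, fell most, although LSM10 lost its call in 9 alternatives. Named because the counts are small, LSM12 (0.39) also rose, and GEMIN8 (-0.33), GEMIN4 (-0.29) and GEMIN5 (-0.27), subunits of the SMN complex, fell. In this list 2 fell without time 0 replicate 1, time 0 replicate 3 or 1 h replicate 1, and 3 without 1 h replicate 3.

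**Figure D4:**
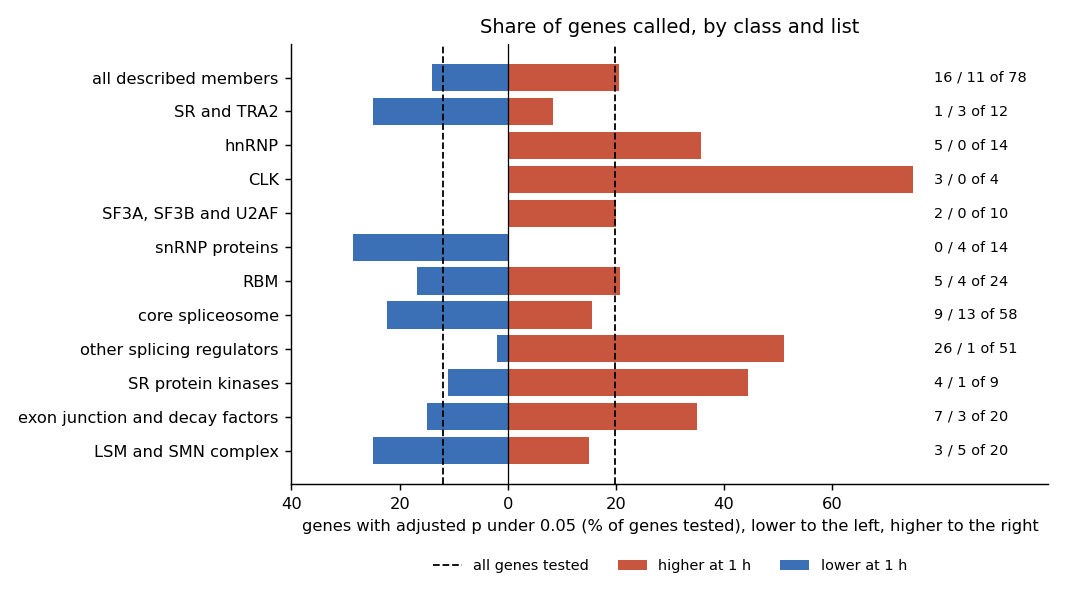
Share of the tested genes of each class or list that passed at an adjusted p under 0.05, higher at 1 h to the right and lower to the left, in percent. Dashed lines mark the shares over all 12391 genes tested (19.8% higher, 12.0% lower), and the numbers on the right give higher and lower calls of the genes tested. The 78 described genes as a whole lie near both lines, while the CLK kinases (3 of 4) and the other splicing regulators (26 of 51) reach far to the right. Members and lists were chosen with earlier results of these data known, so the shares are a description and no test.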

How the data were processed

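For each of 17262 genes, the table the authors deposited gives the raw counts of every library, a normalized signal made from them, and FPKM values. It also holds the authors' comparison of the time points as log2 fold changes, p-values and adjusted p-values. Only the counts were used. The submitters' processing notes name HISAT2 2.0.5, StringTie 1.3.3b, featureCounts 1.5.0-p3 and DESeq2 1.20.0. The genome build and the use of strand in counting are not given in the sources used here, and coordinates are those of the table. Symbols were taken from the table, in which 5219 genes have none, so a member without a symbol would be missed. The labels repeat the text on culture for time 0, and the study's methods, in which time 0 explants were collected directly, were followed.

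Low counts were removed by filterByExpr with the time point as group, libraries were scaled by TMM, and glmQLFTest was run on a robust glmQLFit in edgeR 4.0.16 (limma 3.58.1, R 4.3.3). The SE was derived from the F statistic. Intervals of log2 fold changes are at 95%. A count of 3 in a library equalled 0.175 to 0.221 CPM. The steps were also run on simulated counts in which far fewer genes changed than were called here. That run therefore cannot show how the scalings behave on these data. The alternatives were DESeq2 1.42.0, 3 other scalings, 2 other filters, non-robust dispersions, a replicate block, a centred correction for gene length, and both together. Leaving out each of the 6 libraries in turn gave the remaining alternatives. A stricter threshold of 0.01 was also applied, and is not counted where a call is said to be kept or lost. Values of single libraries are CPM on the TMM scale, and levels are compared between genes only per kilobase of the listed gene length.

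The genes named with all libraries are CLK1 to CLK4, in every other class the 4 largest increases and 3 largest decreases among those that passed, and the gene with the highest level per length. In the further lists the 2 largest changes in each direction are named, and other names stand where a count is 5 or fewer or where genes overlap. The members and lists were chosen with earlier results of these data known. Promoter and protein sequences were not analysed here.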

Additional observations from a re-analysis of the deposited data

How the results depend on the processing

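The naming rule picked 47 genes from the classes and lists, most of them because they passed. Of their values under 16 alternatives, 659 kept their direction and their side of the threshold, 78 no longer passed, 5 newly passed and 10 changed sign. Described genes outside these 47 also newly passed in some alternatives, among them SF3B5, SNRNP35 and TRA2B, so the 5 is no measure of how often uncalled genes cross the threshold. The CLK calls held throughout. Upper-quartile scaling gave 9 members higher and 26 lower with a median of -0.14. SR genes then had 1 higher and 6 lower, hnRNPs 2 and 2, and SF3 and U2AF genes 0 and 4. The snRNP genes had 0 higher and 8 lower, and RBM genes 3 and 6. Under it the core list had 4 higher and 29 lower, and the other regulators 18 higher and 4 lower. With this scaling the SR kinases had 3 higher and 2 lower and the exon junction list 4 higher and 8 lower. In the LSM and SMN list 2 were higher and 12 lower, and over all 12391 genes tested 1901 and 3400. CLK3 turned to -0.048 and HNRNPA1 to -0.038. Library totals gave a median of -0.047, 1 SF3 or U2AF gene higher and 1 lower, and 23 other regulators higher and 2 lower. RLE factors gave 2 SF3 or U2AF genes higher and 1 lower, and no filter gave 1 higher and 1 lower. DESeq2 gave 16 members higher and 7 lower, and over all genes 2211 and 1377. Of the RBM genes it gave 5 higher and 2 lower, and of the LSM and SMN list 3 and 3. At an adjusted p under 0.01, 10 members were higher and 3 lower, and the share of all genes at that threshold is not given.

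The length correction gave a median of 0.053, and turned SF3B6 to 0.14 and SNRPF to 0.016. With it, SR genes had 2 higher and 2 lower, snRNP genes 1 and 3, and SR kinases 2 and 1. No pairing by replicate number was seen, as deviations of same-numbered libraries correlated at -0.076, 0.0047 and -0.041. With 3 libraries a group these values cannot exclude a pairing. The replicate block gave 14 members higher (all among the 16) and 10 lower (9 among the 11). It gave 1 SF3 or U2AF gene higher and 1 lower, and in the LSM and SMN list 3 and 3. The block with the length correction gave 15 members higher and 6 lower and a median of 0.054, with SF3B6 at 0.14 and SNRPF at 0.016. SR genes then had 2 higher and 0 lower, snRNP genes 1 and 3, RBM genes 3 and 3, and SR kinases 2 and 1.

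Leaving out 1 library gave 10 to 16 members higher and 5 to 10 lower, with medians of -0.044 to 0.014. Over all genes tested, the same fits gave 1953 to 2280 higher and 1030 to 1431 lower. By class, the ranges were 1 higher and 1 to 3 lower for SR genes, and 3 to 5 higher and 0 lower for hnRNPs. They were 0 to 1 higher and 0 to 1 lower for SF3 and U2AF genes, and 0 to 1 higher and 2 to 3 lower for snRNP genes. For RBM genes they were 3 to 6 higher and 1 to 3 lower. The core list had 5 to 9 higher and 6 to 13 lower, and the LSM and SMN list 2 to 3 higher and 2 to 5 lower. CLK3 reached -0.0049, and SF3B6 ranged from -0.069 to 0.017. The cause of these shifts was not tested. With 3 libraries a group and these depths, the smallest change called among the members was that of SRSF5A (-0.19). The median size of a change that was not called was 0.10. Larger changes also went uncalled, such as RBM11 (-0.58) and SNRNP35 (0.33), so neither value is a limit of detection. A gene that was not called may still have shifted.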
